A study of Mus musculus with 2 samples.

Results

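Interferons, their receptors and the transducers that carry their signal were followed cell by cell in tumours of the mouse pancreas, with RNA captured in droplets. The group held 9 of the 32285 genes in the count matrices, picked by symbol for their role in the pathway. These were the ligand genes Ifng and Ifnb1, the receptor chains Ifnar1, Ifnar2, Ifngr1 and Ifngr2, and the transducers Stat2, Irf7 and Irf9. All 9 were found in both matrices, with UMIs (unique molecular identifiers, each standing for 1 captured RNA molecule) summed per cell class and library.

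KPC cells, which are mouse pancreatic cancer cells, were implanted into the pancreas, and the tumours were taken at day 21. The control library came from 5 pooled Porcn fl/fl littermates. The knockout library came from 5 pooled Csf1r-Cre; Porcn fl/fl mice, in which Cre under the Csf1r promoter acts in monocytes, macrophages and other cells that use that promoter. The hosts of both groups therefore carried the floxed Porcn alleles, and the age of the mice is not given in the sources used here. Porcn encodes the acyltransferase that WNT proteins need in order to be secreted. The viable cells of the dissociated tumours were loaded without a sort. With 1 pooled library per genotype there is no replicate, so no test was made, mouse-to-mouse spread is unknown, and a difference compares 2 libraries. Intervals are exact at 95%, and the only error they hold is that of counting.

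As background, interferon gamma, the product of Ifng, is made mainly by T and NK cells. It binds a receptor built from Ifngr1 and Ifngr2, which signals through the kinases Jak1 and Jak2 to genes with gamma-activated sites. Interferon beta, the product of Ifnb1, binds Ifnar1 and Ifnar2, which signal through the kinases Tyk2 and Jak1, and Stat2 and Irf9 are parts of the complex that then binds interferon-stimulated response elements. Irf7, itself an interferon-stimulated gene, is a transcription factor that raises type I interferon production in a second wave.

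The control library held 13766 barcodes and 173934025 UMIs, and the knockout library 12251 barcodes and 137527647 UMIs. After filtering, 11516 control and 10467 knockout cells were kept, with medians of 12167.5 and 10109 UMIs per cell. The libraries shared 46 barcodes, of which 38 were kept. The kept cells fell into 14 named classes, and clusters without enough leading markers stayed unnamed. Unnamed clusters whose best score was for the tumour class held 11.8% of the control and 8.86% of the knockout cells. A class was compared where both libraries held 100 or more of its cells. These were the T-like cells (193 control and 1615 knockout), monocyte/macrophage-like cells (519 and 645), neutrophil-like cells (291 and 181), epithelial/tumour-like cells (8079 and 4829) and fibroblast-like cells (624 and 731). Of the 8 markers of the epithelial/tumour class, 4 were found in at least 10% of its cells in each library. Porcn itself had 8 UMIs in control and 4 in knockout monocyte/macrophage-like cells, or 3.19 CPM (1.38 to 6.29) and 1.21 CPM (0.331 to 3.11), with a ratio of 0.380 (0.0837 to 1.42). Neutrophil-like cells had 0 Porcn UMIs in both libraries. Over all kept cells, whose class makeup differed, Porcn had 1212 and 637 UMIs, a ratio of 0.686 (0.622 to 0.756). CPM means UMIs per 1000000 UMIs of the class. Tags from the 3′ end of the transcript can lie outside the deleted part, so this checks neither label.

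Ifng RNA came mainly from T-like and NK-like cells, which together held 83.3% of its control UMIs and 95.7% of its knockout UMIs. Unnamed cells held a further 71 UMIs, or 15.4%, in the control and 18, or 1.28%, in the knockout. T-like cells held 372 of the 460 Ifng UMIs of the control library, or 80.9%, and 1239 of the 1410 of the knockout library, or 87.9%. Over all kept cells Ifng was at 2.73 CPM in the control and 10.9 CPM in the knockout library, a ratio of 4.0 (3.60 to 4.46). Within T-like cells the order was the other way round: 539 CPM (485 to 596) in the control and 184 CPM (174 to 194) in the knockout, a ratio of 0.341 (0.303 to 0.384). Thus Ifng was a larger share of the RNA of all kept cells in the knockout library, and a smaller share of T-like RNA. T-like cells made up 1.68% of the kept control cells and 15.4% of the kept knockout cells.

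NK-like cells, of which there were 37 in the control and 251 in the knockout library, had 11 and 111 Ifng UMIs. Their levels were 82.8 CPM (41.4 to 148) and 128 CPM (105 to 154), and the ratio of 1.54 (0.829 to 3.18) was not separable from 1 at this depth. Monocyte/macrophage-like cells had 0 Ifng UMIs in the control, where 3 UMIs would have been 1.20 CPM, and 4 in the knockout at 1.21 CPM. Epithelial/tumour-like cells had 3 and 15 UMIs, or 0.0237 and 0.184 CPM. Of the 15, a single cell gave 7, and that cell also held 48 UMIs of the Cd3 genes of the T-cell receptor complex. In the unnamed cluster L04, with cells of both libraries, 1 control cell held 64 Ifng UMIs and 46 Cd3 UMIs. The plot of Ifng by class shows the step between lymphoid and other classes.

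**Figure D1:**
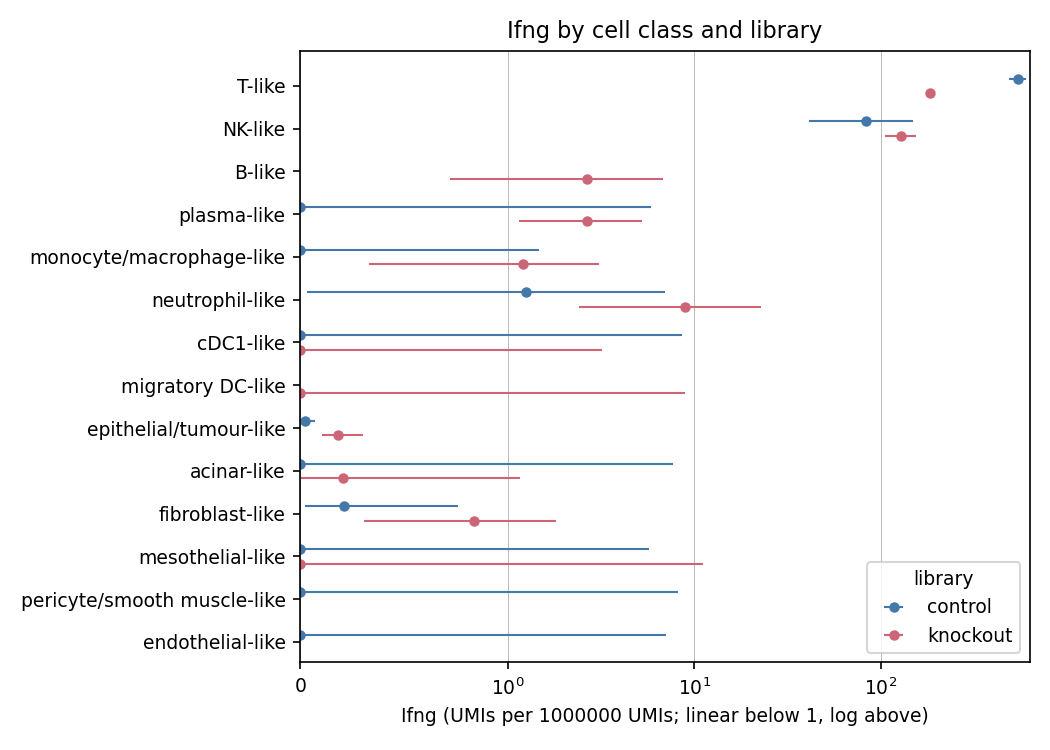
Ifng level in each named class (rows) of the control and the knockout library, as UMIs per 1000000 UMIs on an axis that is linear below 1 and logarithmic above, with exact 95% intervals; classes with under 30 cells in a library have no point for it. T-like cells stand at 539 in the control and 184 in the knockout library, above every other class drawn.

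Ifng was carried by few cells. The control T-like cells with the most Ifng held 97, 67 and 29 UMIs, and the knockout ones 181, 67 and 46. In the control library 3 cells held the first 50% of the T-like Ifng UMIs, against 39 cells in the knockout. Without the 5 cells of each library with the most Ifng, the T-like sums were 148 and 889 UMIs and the ratio 0.571, and the ratio over all kept cells was 7.44. The direction was the same in both cases, but the sizes rest on those few cells.

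The share of T-like cells with at least 1 Ifng UMI was 32.6% in the control (26.1 to 39.7) and 25.1% in the knockout (23.0 to 27.3). At least 5 UMIs were found in 7.77% and 2.60% of them. The T-like cells had medians of 2820 UMIs (control) and 3354 UMIs (knockout). With each cell thinned to 1000 UMIs, 31 of 184 control cells kept an Ifng UMI (16.8%, interval 11.7 to 23.1), as did 161 of 1581 knockout cells (10.2%, interval 8.74 to 11.8), with 9 and 34 shallower cells left out. These intervals overlap at their edges. Thinned epithelial/tumour-like cells, of which the median depths before thinning were 13149 and 14734 UMIs, gave 0 of 8036 and 0 of 4806. There 3 cells would have been 0.0373% and 0.0624%, and the exact upper limits are 0.0459% and 0.0767%. Not thinned, these deeper cells held an Ifng UMI in 0.0371% of the control and 0.166% of the knockout cells, and both T-like shares lie above that.

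**Figure D2:**
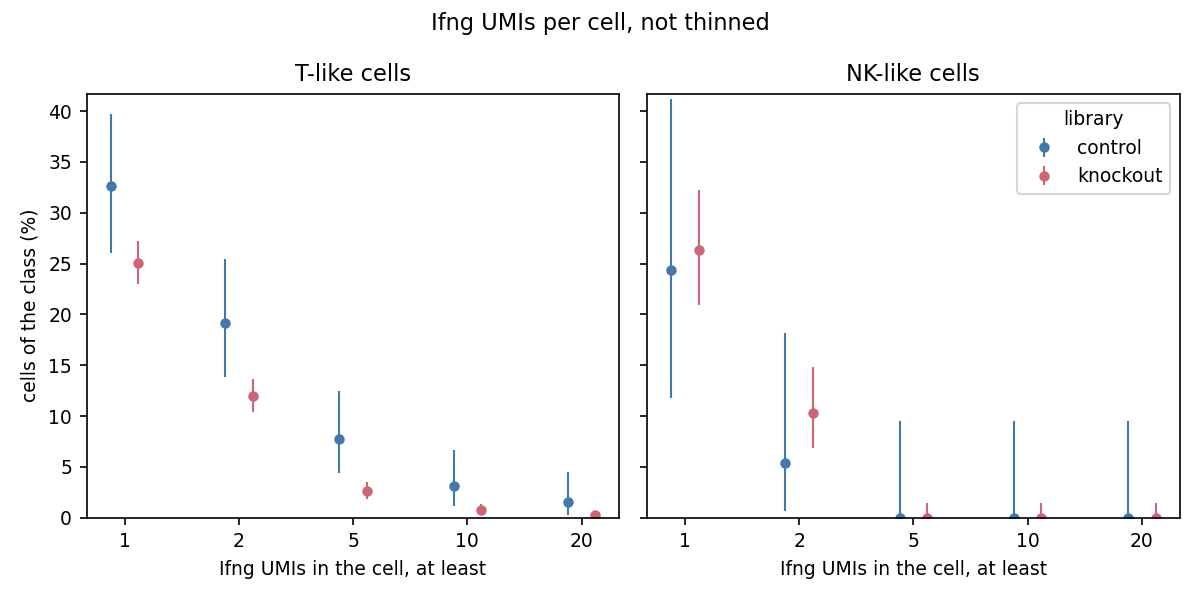
Percent of T-like (left) and NK-like (right) cells that held at least the number of Ifng UMIs on the x axis, in the control and the knockout library, not thinned, with exact 95% intervals. In T-like cells the control share is 32.6% at 1 UMI and 7.77% at 5, and the knockout share 25.1% and 2.60%.

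Within the T-like class, cluster L15 carried most of the gene. Its leading genes include the CD8 chains Cd8a and Cd8b1 and the cytotoxic-cell genes Nkg7 and Ccl5. It had 333 Ifng UMIs in 91 control cells and 974 in 546 knockout cells, or 959 and 424 CPM, a ratio of 0.442 (0.390 to 0.503). Cluster L15 made up 47.2% of the control and 33.8% of the knockout T-like cells. Cluster L12 stood at 216 and 132 CPM, and L19 at 144 and 74.2 CPM. The cluster with Ctla4 and Tnfrsf4 among its leading genes, L09, was at 20.4 and 17.1 CPM, and L16, with Lef1 and Il7r, at 18.8 and 26.6 CPM. With the clusters weighted alike in both libraries the T-like ratio was 0.468.

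Genes that induce Ifng were followed as a list of 12, of which 9 reached 20 UMIs over both libraries in T-like cells. Of these, 5 were past 1.5-fold and lower in the knockout and 0 higher, and 3 of the 5 had intervals clear of 1. Over all genes tested in T-like cells 16.8% were lower and 9.4% higher, and 5.58% were lower with an interval clear of 1. Eomes, a transcription factor of cytotoxic lymphocytes, was at 44.9 and 18.7 CPM, a ratio of 0.416 (0.279 to 0.638). Il18rap, a chain of the interleukin-18 receptor, was at 119 and 75.6 CPM, a ratio of 0.636 (0.503 to 0.814). The median log2 ratio of the 9 was −0.59, against −0.08 for all genes tested in T-like cells. The CD8 cluster L15 made up 47.2% of the control and 33.8% of the knockout T-like cells. No count with clusters weighted alike is given for this list, and the part of that shift in it was not tested. In monocyte/macrophage-like cells 5 of 9 measured genes of the same list were past 1.5-fold and higher, against 8.95% of all genes. Il12b, a chain of interleukin 12, had 3 UMIs in control and 50 in knockout cells of that class, a ratio of 12.7 (4.09 to 63.5). Stat4 and Il18r1, also among the 5, had 4 and 40 UMIs and 2 and 20 UMIs there. Cluster L06 of the class, with 7 control and 87 knockout cells, scored 0.622 for it and 0.621 for the dendritic cell class cDC2. In fibroblast-like cells Il12b was the 1 of 4 measured genes of the list that was higher, at 1 and 24 UMIs, and 3 were lower. Over all genes 20% were higher and 12.4% lower there. Il12b also leads the migratory DC-like cluster L18, with 17 control and 70 knockout cells. The part of L06, or of RNA or cells of other classes, in the monocyte/macrophage-like values was not tested. Over all kept cells 9 of the 12 were higher, against 18.2% of all genes, where T-like and NK-like cells also made up a larger share of the cells.

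Ifnb1 was rare. It had 9 UMIs in 6 control cells and 68 UMIs in 12 knockout cells, a ratio of 9.86 (4.90 to 22.5). Monocyte/macrophage-like cells held 3 control UMIs (1.20 CPM) and 39 knockout UMIs (11.8 CPM), with a ratio of 9.87 (3.14 to 49.9). Of the 39, 35 lay in 4 cells of cluster L00, whose leading genes are Arg1, Mmp12 and Chil3, with 14, 10, 9 and 2 UMIs. A single epithelial/tumour-like cell of the dividing cluster 09 held 26 of the 27 Ifnb1 UMIs of its class in the knockout. In all, 4 knockout cells held 59 of the 68 UMIs, so the difference in Ifnb1 is one of 4 cells. As the mean over cells of the per-cell CPM, the ratio was 3.99 in monocyte/macrophage-like cells and 4.44 over all kept cells. With called doublets kept, the ratio in epithelial/tumour-like cells was 3.44, against 14.0 without them.

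No other interferon ligand gave a usable signal. Of 19 such genes, 15 had 0 UMIs in both libraries, among them all 13 Ifna genes. Over all kept cells, 3 UMIs would have been 0.0178 CPM in the control and 0.0232 CPM in the knockout. The other four held 34 UMIs in all. Plasmacytoid dendritic cells, the classical source of interferon alpha, formed no class of their own. Their marker Siglech had 4 UMIs in 3 control cells and 114 UMIs in 10 knockout cells. Of 12 listed sensors and adaptors that induce type I interferon, all 12 were measured in monocyte/macrophage-like cells, and 3 were past 1.5-fold and higher, against 8.95% of all genes. These were Cgas, a sensor of cytosolic DNA, at 13.2 and 24.6 CPM, Ddx58, the RNA sensor RIG-I, at 42.3 and 76.1 CPM, and the adaptor Myd88 at 26.4 and 41.9 CPM. In epithelial/tumour-like cells 0 of 10 were past 1.5-fold, where 9.8% of all genes were higher and 5.35% lower.

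The receptor chains differed far more between cell classes than between libraries. A 3′ UMI count depends on the transcript, so levels are set here only between classes for the same gene. Ifnar1 was highest in monocyte/macrophage-like cells, at 96.2 CPM (84.5 to 109) in the control and 110 CPM (99.3 to 122) in the knockout. Its interval overlapped that of NK-like cells, at 90.4 and 100 CPM. It was lowest in epithelial/tumour-like cells, at 22.8 and 20.7 CPM. Ifnar2 stood at 231 CPM in control monocyte/macrophage-like cells, beside mesothelial-like cells at 220.4 CPM, whose interval overlapped it. In the knockout the order of these classes was turned, at 278 CPM (260 to 296) and 337 CPM (278 to 406), again with overlapping intervals. Epithelial/tumour-like cells had 72.2 and 75.5 CPM of Ifnar2.

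Ifngr1 and Ifngr2, the chains of 1 receptor, were distributed unlike each other. Ifngr1, the ligand-binding chain, was highest in NK-like cells, at 610 and 758 CPM, and in T-like cells, at 256 and 397 CPM. Ifngr2, the chain needed to signal, was low there. NK-like cells had 0 UMIs in the control, where 3 UMIs would have been 22.6 CPM and the exact upper limit is 27.8 CPM, and 2 UMIs in the knockout, or 2.30 CPM (0.279 to 8.31). Free RNA from tumour cells alone was estimated to give NK-like cells 2.11 and 2.25 CPM of Ifngr2, so expression in them could not be told from free RNA at this depth. T-like cells had 5 and 87 Ifngr2 UMIs, or 7.24 and 12.9 CPM, of which free tumour RNA was estimated to give 2.87 and 5.72 CPM. The highest levels of Ifngr2 among the compared classes were in monocyte/macrophage-like cells, at 125 and 144 CPM, in neutrophil-like cells of the knockout, at 140 CPM, and in epithelial/tumour-like cells, at 109 and 104 CPM.

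**Figure D3:**
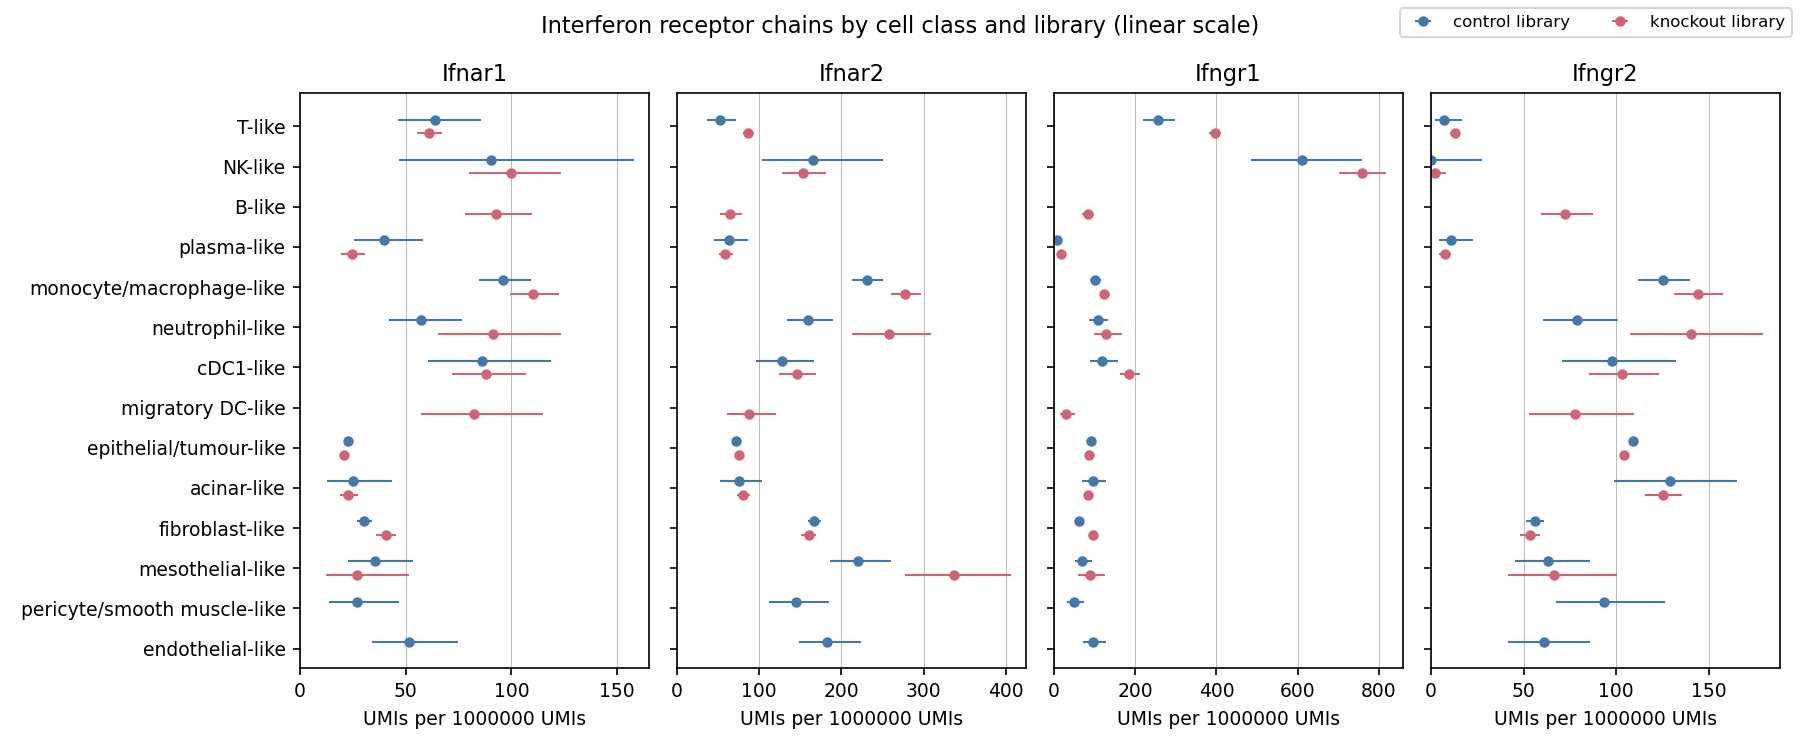
Level of the receptor chains Ifnar1, Ifnar2, Ifngr1 and Ifngr2 (panels) in each named class (rows) of both libraries, as UMIs per 1000000 UMIs on linear axes that differ between panels, with exact 95% intervals; classes with under 30 cells in a library have no point for it. Ifngr1 peaks in NK-like cells (610 and 758), where Ifngr2 is at 0 and 2.30.

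Between the libraries, receptor chains in epithelial/tumour-like cells differed little. The ratio of knockout to control was 0.910 for Ifnar1 (0.857 to 0.967), 1.05 for Ifnar2 (1.01 to 1.08), 0.943 for Ifngr1 (0.915 to 0.972) and 0.956 for Ifngr2 (0.931 to 0.983). In T-like cells Ifngr1 had a ratio of 1.55 (1.33 to 1.81), or 1.40 with the clusters weighted alike, which is under 1.5-fold. It was higher in all 5 clusters, with ratios from 1.21 to 1.61, and 2 of the 5 had intervals clear of 1. Ifnar2 went from 52.1 to 86.8 CPM in T-like cells, a ratio of 1.66 (1.19 to 2.40), or 1.44 with a looser cell filter. Of its 5 clusters 3 were higher and 1 lower, with ratios from 0.643 in L19 to 2.27 in L16. A cluster without control UMIs has no ratio and is in neither number. In 1 of 5, L09, the interval was clear of 1. The T-like ratio of Ifngr2, 1.78 (0.734 to 5.62), rests on 5 control UMIs and its interval holds 1. Free tumour RNA, estimated at 2.64% of the control and 5.49% of the knockout T-like UMIs, moved with it, and its part in the ratio was not tested.

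Fibroblast-like cells had 62.4 and 96.4 CPM of Ifngr1, a ratio of 1.55 (1.38 to 1.73). The ratio was 1.28 with the clusters weighted alike, which leaves out clusters S03 and S15. In neutrophil-like cells 3 of the 4 chains were past 1.5-fold and higher. Ifnar1 had a ratio of 1.59 (1.02 to 2.47), Ifnar2 1.61 (1.24 to 2.09) and Ifngr2 1.78 (1.24 to 2.57). With the clusters weighted alike the first pair of ratios was 1.25 and 1.27, both under 1.5-fold, and as a mean over cells that of Ifngr2 was 1.25. Neutrophil-like cells were shallow, at 1709 and 1861 UMIs per cell, and their makeup differed, since cluster L17 held 45.7% of them in the control and 76.2% in the knockout. The part of that shift in the class values is shown only by the ratios with clusters weighted alike.

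The members were also counted per class. A member counted as measured in a class with at least 20 UMIs over both libraries. In neutrophil-like cells 6 of 7 measured members were higher and 0 lower, where 17.2% of all genes were higher and 17.9% lower by the same measure. With the clusters weighted alike, 2 of the 6, Irf7 at 2.16 and Irf9 at 1.72, were past 1.5-fold, and Ifngr2 was at 1.42. The median log2 ratio of those 7 was 0.83, against −0.03 over all genes. In monocyte/macrophage-like cells 2 of 8 were higher, Ifnb1 and Irf7, with Stat2 just short at 1.48, and 0 lower, against 8.95% and 10.5% of all genes, with medians of 0.27 and −0.02. The same pair was higher among 8 in epithelial/tumour-like cells, with 0 lower, against 9.8% and 5.35%, with medians of 0.22 and −0.04. The Ifnb1 calls rest on few cells: 4 knockout cells held 59 of the 68 Ifnb1 UMIs of that library. In epithelial/tumour-like cells 1 cell held 26 of the 27. The intervals take UMIs of the same cell as independent counts. T-like cells had 3 of 8 higher, Ifnar2, Ifngr1 and Ifngr2, and 1 lower, Ifng, against 9.4% and 16.8%. Fibroblast-like cells had 1 of 7 higher, Ifngr1, and 1 lower, Irf7, against 20% and 12.4%, and there the median of the members, 0.10, was that of all genes. Over all kept cells 3 of 9 were higher and 0 lower, against 18.2% and 6.16%. All these members but Ifngr2 in T-like cells also had intervals clear of 1. By that stricter measure, the shares of all genes that were higher and lower were 3.36% and 5.58% in T-like cells, 6.08% and 6.88% in monocyte/macrophage-like cells and 11.7% and 9.84% in neutrophil-like cells. They were 7.35% and 4.14% in epithelial/tumour-like cells, 17.2% and 10.7% in fibroblast-like cells and 16.2% and 5.15% over all kept cells.

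**Figure D4:**
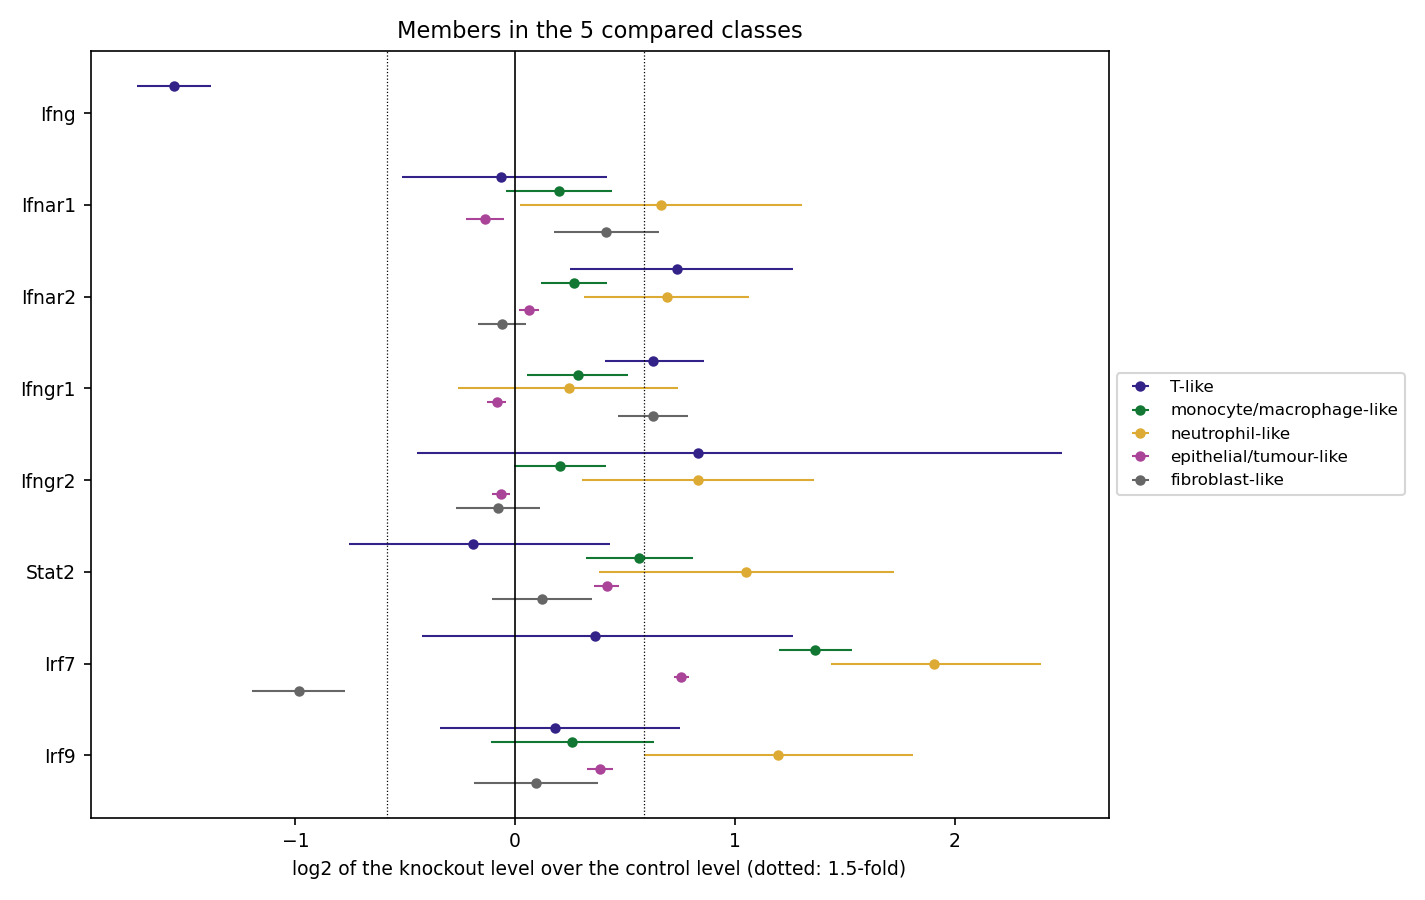
Log2 of the knockout level over the control level for 8 members (rows) in the 5 compared classes (colours), with exact 95% intervals and dotted lines at 1.5-fold; Ifnb1 is not drawn. Irf7 lies past the line on the right in monocyte/macrophage-like, neutrophil-like and epithelial/tumour-like cells and past that on the left in fibroblast-like cells, and Ifng lies on the left in T-like cells.

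Among the transducers, Irf7 differed most between the libraries. Monocyte/macrophage-like cells had 387 control UMIs (155 CPM) and 1313 knockout UMIs (398 CPM), a ratio of 2.58 (2.30 to 2.89). Neutrophil-like cells had 56 and 118 UMIs, or 69.9 and 262 CPM, a ratio of 3.75 (2.71 to 5.25). This was 2.16 with the clusters weighted alike and 5.70 with a strict cell filter that left 13 and 33 UMIs. Epithelial/tumour-like cells, which held 76.9% of the control and 65.6% of the knockout Irf7 UMIs, stood at 102 and 172 CPM, a ratio of 1.69 (1.65 to 1.73). With tumour clusters weighted alike the ratio was 1.41, which is under 1.5-fold. T-like cells had low levels of 20.3 and 26.1 CPM, a ratio of 1.29 (0.746 to 2.40).

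The Irf7 difference ran through most clusters of these classes. In monocyte/macrophage-like cells it was higher in all 4 clusters with enough cells, with ratios from 1.65 to 2.83 and every interval clear of 1. Cluster L14, led by Arg1 and Ms4a4c, went from 429 to 930.0 CPM, and L00 from 164 to 465 CPM. In epithelial/tumour-like cells 8 of 9 clusters were higher, each clear of 1, and cluster 22, the smallest, was lower at a ratio of 0.673 with an interval that held 1. Tumour clusters 02 and 06, both with the interferon-stimulated gene Ifit3 among their leading genes, made up 9.51% and 10.2% of the control class and 16.8% and 20.2% of the knockout class. Thinned to 1000 UMIs, the share of cells with an Irf7 UMI was 15.8% and 26.1% in monocyte/macrophage-like cells, 9.75% and 19.6% in neutrophil-like cells and 9.12% and 14.2% in epithelial/tumour-like cells.

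**Figure D5:**
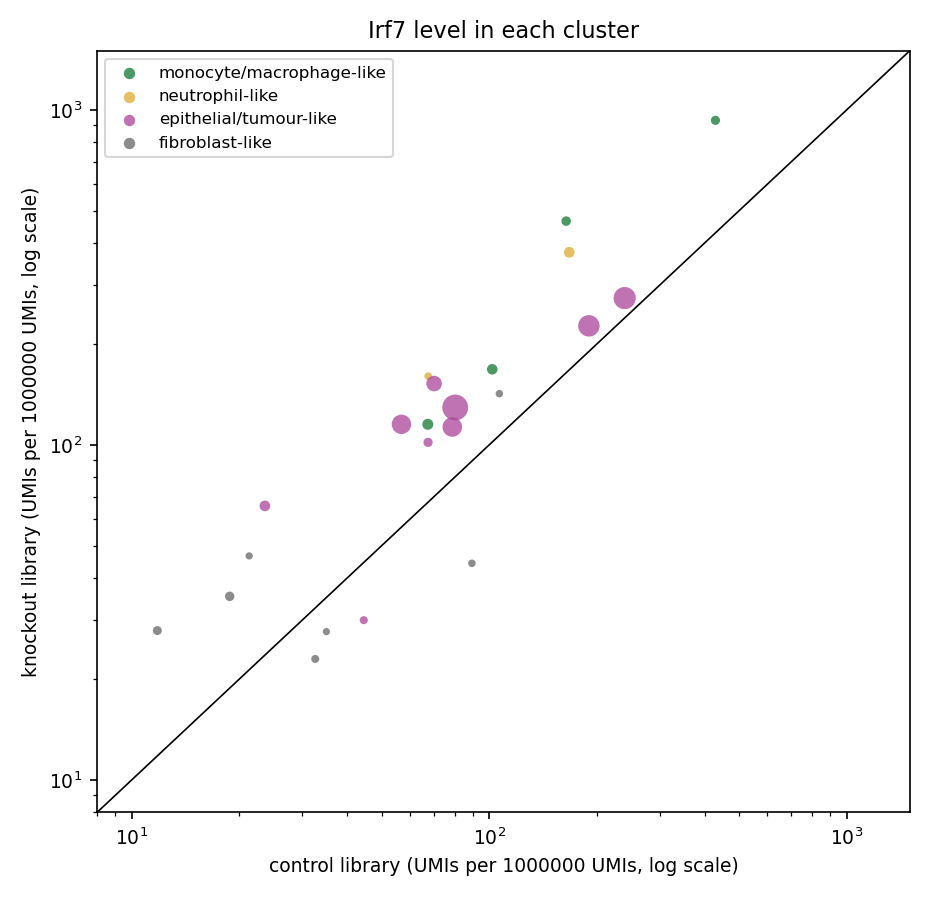
Irf7 level of each cluster in the control (x) and the knockout library (y), as UMIs per 1000000 UMIs on log axes; the line marks equal levels, colours mark the class, and point size grows with the smaller of the numbers of cells in both libraries. Clusters with at least 10 cells in each library and 20 UMIs in all are drawn, and all 4 monocyte/macrophage-like clusters and 8 of 9 epithelial/tumour-like clusters lie above the line.

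Among the compared classes, fibroblast-like cells went the other way. Irf7 had 678 control UMIs (71.3 CPM) and 259 knockout UMIs (36.1 CPM), a ratio of 0.506 (0.437 to 0.585). The libraries also held different fibroblast clusters: S00 had 200 control and 24 knockout cells, and S03 109 and 3. The part of this in the class ratio was not tested. With the clusters weighted alike the ratio was 0.971. That weighting leaves out clusters with under 10 cells in a library, here S03 (17.5% of the control class) and S15 (11.2% of the knockout class). As a mean over cells the ratio was 0.601, and with called doublets kept 0.710. Of 7 clusters compared, 4 were higher and 3 lower, with 1, S00, clear of 1 at 89.5 and 44.3 CPM. The thinned shares of fibroblast-like cells with an Irf7 UMI, 4.20% and 4.41%, did not follow the class ratio. Epithelial markers moved with this result too, at 16.1% of their tumour-class level in control and 4.23% in knockout fibroblast-like cells. Free tumour RNA, cells captured together and the cells' own expression could not be told apart there. The part of these in the result was not tested.

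Stat2, a STAT of the type I response, was at 45.8 and 61.1 CPM in epithelial/tumour-like cells, a ratio of 1.33 (1.28 to 1.39). It was higher in 7 of 9 clusters, 6 of them with intervals clear of 1. In the small cluster 22 it was lower with an interval clear of 1, at a ratio of 0.503 (0.286 to 0.887). In monocyte/macrophage-like cells it was at 84.6 and 125 CPM, a ratio of 1.48 (1.25 to 1.75). That ratio was past 1.5-fold under 10 of 13 alternatives, and ran from 1.26 to 1.72. Stat2 was higher in all 4 clusters compared, with ratios from 1.02 to 2.05, and 1 of the 4 had an interval clear of 1. The neutrophil-like ratio of 2.07 (1.30 to 3.30) came from 37 and 43 UMIs, and was 1.09 with the clusters weighted alike and 7.12 under the strict cell filter. Stat2 in T-like and fibroblast-like cells had ratios of 0.877 (0.592 to 1.35) and 1.09 (0.929 to 1.28).

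Irf9, the DNA-binding partner of Stat2, was at 39.7 and 51.8 CPM in epithelial/tumour-like cells, a ratio of 1.31 (1.25 to 1.36). It was higher in 8 of 9 clusters, 6 of them with intervals clear of 1. It went from 52.5 to 120 CPM in neutrophil-like cells, a ratio of 2.29 (1.50 to 3.51). In monocyte/macrophage-like cells the levels of 40.3 and 48.2 CPM gave a ratio of 1.20 (0.926 to 1.55). Its ratios in T-like and fibroblast-like cells were 1.13 (0.789 to 1.68) and 1.07 (0.878 to 1.30).

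The promoters of Stat2 and Irf7 are shown because these transducers are themselves known to respond to interferon and had ratios with intervals above 1 in both monocyte/macrophage-like and epithelial/tumour-like cells. Sequences come from RefSeq on GRCm38.p6, which gave 10 promoter windows for the 9 members, and only the bases before the start are printed, on the strand of the gene and 5′ to 3′. The Stat2 stretch is chr10:128270248-128270497 on the plus strand. Its capitals mark the core of an interferon-stimulated response element, searched as a pair of GAAA half-sites with any 2 bases between them. It is read here on the opposite strand and begins 222 bases before the start.
Stat2: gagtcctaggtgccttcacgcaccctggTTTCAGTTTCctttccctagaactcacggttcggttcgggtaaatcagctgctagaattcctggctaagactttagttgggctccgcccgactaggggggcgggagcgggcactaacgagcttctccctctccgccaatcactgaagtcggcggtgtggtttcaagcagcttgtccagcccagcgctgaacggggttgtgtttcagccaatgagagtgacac
The Irf7 stretch, chr7:141266482-141266674 on the minus strand, is shorter because the annotated start of GENCODE lies further out, and it held no match.
Irf7: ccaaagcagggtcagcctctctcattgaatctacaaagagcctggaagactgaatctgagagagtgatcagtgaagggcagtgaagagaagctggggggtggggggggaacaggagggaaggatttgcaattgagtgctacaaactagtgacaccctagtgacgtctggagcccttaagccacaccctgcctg
On both strands the response element core was found in 1131 of 32851 promoter windows of 300 bases, or 3.44%. The gamma-activated site, TTCNNNGAA, was found in 2726, or 8.30%, and the motifs did not overlap in the windows of the members. Matches of the gamma-activated site are shown in capitals with the bases beside them, for the 3 members that held one. They lie in the stretches chr10:118440796-118441045, chr16:91484965-91485214 and chr16:91372533-91372782, all on the plus strand, and that of Ifnar1 runs across the start.
Ifng, 249 bases before the start: tTTCAGAGAAtcccacaaga
Ifnar1, 5 bases before the start: ggcgggggcgTTCACGGAAggggcggggc
Ifnar2, 214 bases before the start: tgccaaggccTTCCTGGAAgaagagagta
Irf9, Ifnb1, Ifngr1 and Ifngr2 held neither motif in these windows. A match is a description of the letters and not a site of binding. Ifnar2 (chr16:91372783-91405589), Ifnar1 (chr16:91485238-91507441) and Ifngr2 (chr16:91547072-91565623) are neighbours on the plus strand of chromosome 16, with the interleukin-10 receptor gene Il10rb between the first pair.

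The rest of the pathway was followed through lists. Of 7 other receptor chains, kinases and STATs, 1 of 6 measured was past 1.5-fold and higher in monocyte/macrophage-like cells, against 8.95% of all genes. This was the kinase Jak2 at 70.3 and 107 CPM, a ratio of 1.52 (1.27 to 1.84). In T-like cells the kinase Tyk2 was the 1 of 6 past 1.5-fold, at 49.2 and 27.4 CPM, where 16.8% of all genes were lower. Among 5 other interferon regulatory factors, Irf1 was the 1 past 1.5-fold in monocyte/macrophage-like cells, at 141 and 212 CPM, a ratio of 1.50 (1.32 to 1.71).

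Among 8 negative regulators, Usp18, a protease that blocks Ifnar2 signalling, was higher in 4 of the 5 compared classes. It stood at 35.5 and 72.5 CPM in monocyte/macrophage-like cells, a ratio of 2.04 (1.59 to 2.63), and at 26.5 and 51.9 CPM in epithelial/tumour-like cells, a ratio of 1.96 (1.87 to 2.05). In fibroblast-like cells Usp18 was lower, at 16.7 and 10.6 CPM, and so was Socs1, an inhibitor of the Jak kinases, at 34.3 and 18.4 CPM.

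Interferon-stimulated genes were counted by class in the same way. Over all genes, 8.95% were higher in monocyte/macrophage-like cells, 17.2% in neutrophil-like cells, 9.8% in epithelial/tumour-like cells and 9.4% in T-like cells, and in fibroblast-like cells 20% were higher and 12.4% lower. Of 13 type I interferon-stimulated genes, 13 of 13 measured were past 1.5-fold and higher in monocyte/macrophage-like cells, with a median log2 ratio of 1.26, and 11 of 12 in neutrophil-like cells, with a median of 1.73. In epithelial/tumour-like cells 7 of 13 were higher, with a median of 0.65, and in T-like cells 6 of 13, of which 3 had intervals clear of 1. In fibroblast-like cells 1 was higher and 4 lower, with a median of −0.48. Ifi44 went from 38.3 to 193 CPM in monocyte/macrophage-like cells. Isg15, a ubiquitin-like protein, went from 170 to 62.5 CPM in fibroblast-like cells. Of 15 interferon gamma-stimulated genes, all 11 measured were higher in neutrophil-like cells, 2 of 15 in monocyte/macrophage-like cells and 3 of 15 in epithelial/tumour-like cells. The 2 in monocyte/macrophage-like cells were the chemokines Cxcl10, at 159 and 484 CPM, and Cxcl9, at 311 and 864 CPM. In fibroblast-like cells 10 of the 15 were lower and 0 higher, Cxcl10 being at 56.5 and 12.5 CPM. The same clusters of fibroblast-like cells and the same levels of epithelial markers as for Irf7 go with these counts. The neutrophil-like counts go with the shift in cluster L17, at 45.7% of the control and 76.2% of the knockout class. Cluster L06 is likewise part of the monocyte/macrophage-like counts. No count with clusters weighted alike is given for these lists.

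The genes whose pattern over classes was most like that of each member were taken by Pearson's r of log2(CPM + 10), over 24 pairs of class and library from 14 classes, which share libraries, depth and cells. Ifng was closest to Gata3 (r = 0.990), Klrc1 (0.989) and Zap70 (0.989). Irf7 was closest to Parp12 (0.879), Ifi204 (0.877) and Cstb (0.874). For Ifngr1 the closest was Rnf166 (0.893) and for Ifngr2 Gpx1 (0.895). Ifnar1 was closest to Cbl (0.912), Ifnar2 to Man1c1 (0.876), Stat2 to Tifa (0.876) and Irf9 to Frg1 (0.835).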

How the data were processed

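Single-cell 3′ libraries (10x Chromium v3.1) of 1 control and 1 knockout pool were used. The deposited matrices hold UMI counts per gene and barcode, made with Cell Ranger 8.0.0 per the file headers. The submitters' processing notes name Cell Ranger 3.1.3 and mm10. Values were not normalized by the authors.

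Barcodes needed 500 or more genes and no more than 15% mitochondrial UMIs, and doublets called by Scrublet (expected rate 0.08) were removed, 148 control and 341 knockout. Cells were clustered with scanpy 1.11.5 (2000 variable genes without the members and interferon lists, 30 components, 15 neighbours, Leiden resolution 1, seed 0) and named from markers of 21 classes. The naming rules were set after the clusters were seen. Members and lists were chosen with earlier results of these data known.

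UMIs were summed per class and library. Levels have exact Poisson intervals and ratios exact conditional intervals at 95%, with scipy 1.17.1. A gene was past the fold at 1.5-fold on the scale of log2 with a pseudocount of 1 UMI, with at least 20 UMIs in both libraries together. The script was tested on simulated data. Free RNA was estimated as the median, over the epithelial markers, of their level in a class over that in epithelial/tumour-like cells. The estimate also counts markers from cells captured together or expressed by the class itself. In acinar-like cells it was 70.1% in the control and 116% in the knockout, so it is not a measure of free RNA alone. Named genes were all members, up to 3 genes per list, class and direction with the largest ratio, Jak1, Jak2, Tyk2, Irf1 and Socs1, and the 3 genes most like each member. Alternatives covered cell filters, doublets, resolution, scaling, weighting and the pseudocount. Weighting the clusters alike left out those with under 10 cells in either library, which were L06, S03 and S15. The alternatives without the top 5 cells, without cluster L06 and with unnamed tumour clusters joined were chosen after seeing the data. Sequences came from RefSeq. Results of 1 gene of the rule are not reported here.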

Additional observations from a re-analysis of the deposited data

Results flagged for a closer look

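The ratio of knockout to control for Irf7 ran in opposite directions between classes. It was 2.58 in monocyte/macrophage-like cells, 3.75 in neutrophil-like cells and 1.69 in epithelial/tumour-like cells, against 0.506 in fibroblast-like cells. Some classes too small for a comparison also had intervals clear of 1. Irf7 was lower in migratory DC-like cells, from 8 and 17 UMIs (116 and 41.2 CPM). In endothelial-like cells it was lower, from 49 and 4 UMIs, with epithelial markers at 31.6% and 0.954% of their tumour-class level. It was higher in cDC1-like cells (42.0 and 175 CPM) and acinar-like cells (76.9 and 113 CPM). With 1 library per genotype the difference between classes was not tested. The fibroblast-like ratio was 0.971 with its clusters weighted alike in both libraries, which leaves out clusters S03 and S15.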

How the results depend on the processing

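Of 521 values under alternatives, 504 kept the direction of the value reported. For ratios past 1.5-fold, all 209 kept it and 189 were still past 1.5-fold. The Ifng ratio in T-like cells (0.341) was 0.274 with classes from each cell's own markers, 0.420 as a mean over cells, 0.468 with clusters weighted alike and 0.571 without the 5 cells with the most UMIs, and over all kept cells the last gave 7.44 against 4.0. The share of T-like cells with an Ifng UMI was 27.9% and 18.1% at 2000 UMIs and 32.6% and 25.1% unthinned. The Irf7 ratio in epithelial/tumour-like cells (1.69) was 1.80 with the loose cell filter, 1.78 at resolution 2, 1.73 with interferon genes in the clustering and with median-of-ratios scaling, 1.82 with own markers, 1.41 with clusters weighted alike and 1.85 with unnamed clusters joined. In monocyte/macrophage-like cells (2.58) it was 2.29 with doublets kept. Ifngr1 in epithelial/tumour-like cells (0.943) was 1.01 with the strict and 1.004 with the loose filter, 0.975 with doublets kept, 0.915 at resolution 0.5 and 0.976 with clusters weighted alike. Stat2 there (1.33) was 1.24 with clusters weighted alike. The cause was not tested for any of these. Median-of-ratios scaling moved fibroblast-like ratios by 0.11 on the log2 scale. With 1 library per genotype no replicate could be left out. No paired analysis was possible because each genotype had 1 library. Neutrophil-like values are limited by depth, with 37 and 43 Stat2 UMIs.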

Other observations

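Type 1 conventional dendritic cells, which take up tumour antigen and present it to CD8 T cells, were too few for a comparison, at 53 control and 117 knockout cDC1-like cells. Irf7 had 18 control and 201 knockout UMIs there, or 42.0 and 175 CPM. Stat2 was at 93.3 and 146 CPM, Irf9 at 49.0 and 81.1 CPM and Ifngr1 at 119 and 186 CPM in the same cells. Ifnar1 was at 86.3 and 88.0 CPM and Ifngr2 at 97.9 and 103 CPM. No Ifng or Ifnb1 UMI was found in them.

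In the cells left unnamed, Irf7 was at 98.8 CPM in the control and 258 CPM in the knockout library, and Stat2 at 49.97 and 72.6 CPM. Their receptor chain Ifngr2 was at 62.0 and 61.9 CPM.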
